A study of Mus musculus with 4 samples.

Results

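The 7 genes described here encode tetraspanins that are used as markers of extracellular vesicles or occur in them: *Cd9*, *Cd63*, *Cd81*, *Cd82*, *Cd151*, *Tspan1* and *Tspan8*. They were chosen by name, and all 7 were found among the 16892 genes of the deposited matrix. The data are single-cell RNA-Seq libraries (10x Chromium, which counts molecules at the 3′ end of each transcript) from the caput, corpus and cauda epididymis and the vas deferens of untreated FVB/NJ male mice aged 10 to 12 weeks. Each region is 1 library, a pool of 8 pieces of tissue from the same 4 mice, dissociated and depleted of sperm, and dissection margins were varied slightly between pieces. The 4 libraries held 1433 cells (caput), 2325 (corpus), 1616 (cauda) and 3506 (vas deferens), with 4408989, 6602962, 4882822 and 10744928 unique molecular identifiers (UMIs, 1 per captured molecule) after removal of cell-free RNA by the authors. Pooling leaves no replicates, so no test between regions was possible and no p-value is given. All intervals are 95% intervals for counting error, and they do not cover variation between animals or dissociations. Those of levels and ratios treat each UMI as independent of the cell that holds it, so they also leave out the spread between cells.

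Tetraspanins are small proteins that cross the membrane 4 times and hold integrins, immunoglobulin-domain proteins and proteases together in patches of membrane. Several are carried on extracellular vesicles, which bud from the cell surface or are released when a multivesicular body fuses with it. In the epididymis such vesicles, called epididymosomes, are known as carriers of protein, lipid and RNA to passing sperm. The libraries measure RNA inside dissociated cells, and no vesicle was measured.

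Cells carry the authors' names for 34 populations, grouped here into 7 types: 3956 principal cells (the main secretory and absorptive epithelial cell), 348 clear cells (which acidify the lumen), 1412 basal cells, 2222 stromal cells, 502 muscle cells, 245 endothelial cells and 195 immune cells. The basal cells include 15 basal-macrophage cells, the population in which the immune markers *Laptm5* and *Csf1r* were highest. Of 49 marker genes of the 7 types, 47 had their highest level in the type they mark. The authors used several of the 49 to name the cells, among them *Krt14*, *Itga6* and *Atp6v1a*, so this count is no independent check of the types. The exceptions among the 49 were *Cdh16*, listed here for principal cells and highest in basal cells, and *Itga6*, listed for basal cells and highest in endothelial cells. The study itself lists *Cdh16* among its basal cell genes. Median depth ran from 934.5 UMIs per cell in principal cells to 4430 in clear cells. Between 2.8% and 4.48% of the UMIs of a library had been taken out as cell-free RNA. *Crisp1*, the principal cell marker with the most UMIs, still had in the other types between 0.684% (immune) and 3.23% (clear) of its principal cell level. At least 4 UMIs from at least 2 markers of another type were present in 1497 cells (16.9%), and 43 cell barcodes occurred in 2 libraries. The populations were drawn by the authors from these same counts, *Tspan8* helped name one of them (the stem-like stromal cells), and the study lists *Cd9* among its basal cell genes, so the levels of these genes there describe the named cells and are not independent of the naming.

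The level of a gene is its UMI sum in a group of cells, divided by the UMIs of all genes in that group and scaled to 1000000 (UPM). Since 1 UMI is counted per molecule at the 3′ end, levels were not scaled by transcript length. In all cells together *Cd63* had 613 UPM (16344 UMIs), *Cd9* 556, *Cd81* 437, *Cd151* 121, *Cd82* 59.4, *Tspan8* 54.96 and *Tspan1* 10.7 (286 UMIs). The first 3 of these made up most of the 49353 UMIs of the family members studied. The 7 genes fell into 2 patterns: 5 were present in every type, and *Tspan1* and *Tspan8* were concentrated in a few. Counting a gene as enriched in a type when it had at least 20 UMIs there and its level there was at least 4 times the median over the 7 types, 2 of the 7 genes were enriched, *Tspan1* in clear cells and *Tspan8* in principal and stromal cells. Of all 12868 genes with at least 20 UMIs in a type, 34.2% were enriched. The median ratio of the highest type to the median type was 1.99 for the 7 genes and 2.65 for all genes.

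**Figure D1:**
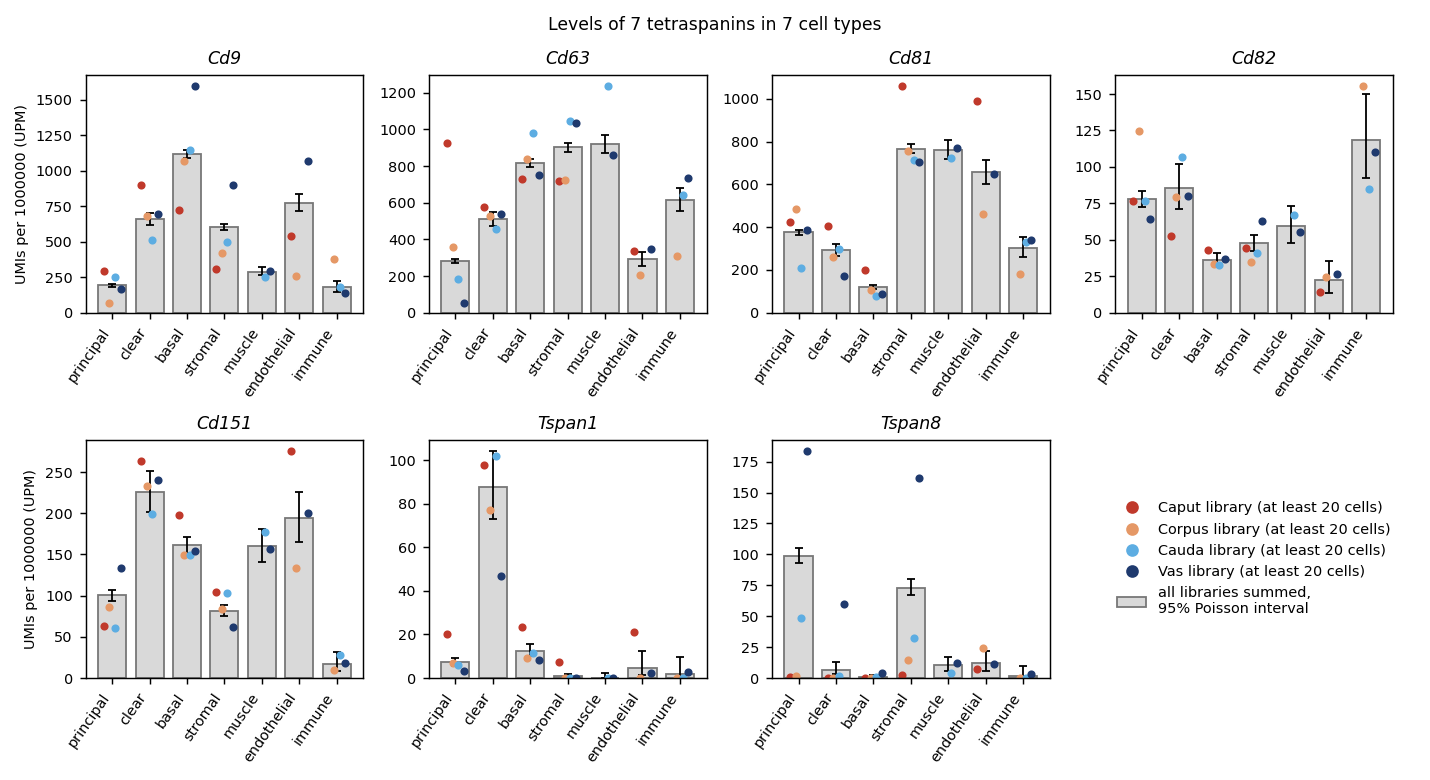
Level of each tetraspanin (UPM, vertical axis, 1 panel per gene, each with its own scale) in 7 cell types; bars are all libraries summed with 95% Poisson intervals, and points are single libraries with at least 20 cells of the type. *Cd9* stands highest in basal cells (1117 UPM), *Tspan1* in clear cells (87.6 UPM) and *Tspan8* in principal and stromal cells (98.9 and 73.2 UPM).

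Each gene has its own place in the genome (GRCm38), and only *Cd81* and *Cd151* (chromosome 7) and *Cd63* and *Tspan8* (chromosome 10) share a chromosome. *Cd9* lies at chr6:125460266-125494760, *Cd63* at chr10:128896231-128912822, *Cd81* at chr7:143052750-143067930, *Cd82* at chr2:93419102-93462950, *Cd151* at chr7:141467362-141471481, *Tspan1* at chr4:116161881-116167621 and *Tspan8* at chr10:115816817-115849893. The 250 bases before the RefSeq start site are shown for the 3 classical vesicle markers and for the 2 enriched genes, to set widely detected genes beside restricted ones. They are printed 5′ to 3′ on the strand of the gene, and capitals mark each CpG pair. The windows are chr6:125494761-125495010 (minus strand) for *Cd9*, chr10:128909095-128909344 (plus strand) for *Cd63*, chr7:143052500-143052749 (plus strand) for *Cd81*, chr4:116167599-116167848 (minus strand) for *Tspan1* and chr10:115817034-115817283 (plus strand) for *Tspan8*. Those of *Cd63* and *Tspan8* lie inside the annotated span of their gene.
Cd9: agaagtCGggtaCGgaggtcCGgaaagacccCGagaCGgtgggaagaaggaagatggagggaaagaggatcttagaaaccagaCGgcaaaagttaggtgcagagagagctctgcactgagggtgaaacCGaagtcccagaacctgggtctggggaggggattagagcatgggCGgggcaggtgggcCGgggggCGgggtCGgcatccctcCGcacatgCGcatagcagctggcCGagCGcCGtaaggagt
Cd63: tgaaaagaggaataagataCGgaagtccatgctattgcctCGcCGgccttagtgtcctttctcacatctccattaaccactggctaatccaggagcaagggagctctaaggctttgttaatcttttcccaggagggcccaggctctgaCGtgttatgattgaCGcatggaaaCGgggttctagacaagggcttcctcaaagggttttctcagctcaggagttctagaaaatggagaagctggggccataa
Cd81: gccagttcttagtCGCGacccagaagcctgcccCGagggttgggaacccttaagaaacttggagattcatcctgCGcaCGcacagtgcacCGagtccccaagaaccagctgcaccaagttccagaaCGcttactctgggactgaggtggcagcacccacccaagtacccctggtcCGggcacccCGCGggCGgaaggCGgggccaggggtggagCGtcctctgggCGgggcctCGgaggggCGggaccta
Tspan1: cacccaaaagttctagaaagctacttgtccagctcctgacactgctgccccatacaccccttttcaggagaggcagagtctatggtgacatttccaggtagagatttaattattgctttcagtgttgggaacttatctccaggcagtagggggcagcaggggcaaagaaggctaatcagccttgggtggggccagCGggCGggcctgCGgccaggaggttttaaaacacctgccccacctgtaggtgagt
Tspan8: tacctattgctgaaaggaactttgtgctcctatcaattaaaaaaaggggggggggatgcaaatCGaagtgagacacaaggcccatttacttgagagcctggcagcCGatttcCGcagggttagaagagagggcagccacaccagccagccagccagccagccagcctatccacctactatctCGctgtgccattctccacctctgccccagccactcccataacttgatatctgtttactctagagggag

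With the first 50 bases of the transcript added, the 300-base windows held 23 CpG pairs in *Cd81*, 18 in *Cd9*, 6 in *Cd63*, 6 in *Tspan1* and 5 in *Tspan8*, against a median of 7 over 32851 such windows of 27025 genes. The CpG count of these windows did not fully separate the widely detected genes from the restricted ones, since *Cd63*, found in every type, held as few pairs as *Tspan1*. The *Cd63* window lies inside its gene, so bases before the annotated start of *Cd63* were not counted. The windows of *Cd82*, also found in every type, held 16, 15, 11 and 4 pairs, and those of *Cd151* held 20 and 4. Of the 11 windows of the 7 genes (*Cd82* has 4 start sites and *Cd151* 2), only that of *Cd81* held the letters TATAAA on either strand, which 13.6% of all windows hold. These are letters of the reference strain, and no measurement of the promoters was made.

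*Cd9*, which is needed on the egg for its fusion with sperm and marks vesicles shed from many cells, was highest in basal cells. Its level was 1117 UPM in basal, 774.5 in endothelial, 657 in clear, 604 in stromal, 290 in muscle, 192 in principal and 182 in immune cells. Basal cells exceeded endothelial cells 1.44-fold (1.33 to 1.56) and immune cells 6.13-fold (5.06 to 7.5). Principal and immune cells could not be told apart (ratio 1.05, 0.867 to 1.3). After drawing 1000 UMIs from every cell that had them, 63.2% of basal cells and 16.4% of principal cells held a *Cd9* UMI, and immune cells had the lowest share at 12.7%.

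*Cd63*, a protein of late endosomes and lysosomes and of the vesicles they release, was highest in muscle and stromal cells when the libraries were summed. It had 919 UPM in muscle, 902 in stromal, 818.5 in basal, 615 in immune, 511 in clear, 292 in endothelial and 280 in principal cells. Muscle and stromal cells did not differ beyond counting error (1.02, 0.961 to 1.08), nor did endothelial and principal cells (1.04, 0.911 to 1.19). Highest and lowest type were 3.28-fold apart (3.07 to 3.5), the narrowest span of the 7 genes. This order did not hold in the caput library, where principal cells had 927 UPM, basal cells 730 and stromal cells 719. In each other library principal cells were below both. In the immune cells *Cd63* followed the population, with 1184 UPM in *Trem2* macrophages, 818 in macrophages, 116 in dendritic cells and 36.3 in T cells.

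*Cd81*, best known as part of the co-receptor of B cells and close in sequence to *Cd9*, was highest in the same mesenchymal types and lowest where *Cd9* was highest. Its level was 768 UPM in stromal, 763 in muscle, 656 in endothelial, 376 in principal, 304 in immune, 293 in clear and 119 in basal cells. Stromal and muscle cells were alike within counting error (1.01, 0.944 to 1.07), as were immune and clear cells (1.04, 0.867 to 1.24), while clear cells exceeded basal cells 2.46-fold (2.18 to 2.78). In cells drawn to 1000 UMIs, 8.74% of basal cells held a *Cd81* UMI against 63.2% for *Cd9*. Dendritic cells (844 UPM) and T cells (45.3 UPM) marked the range of *Cd81* within the immune cells.

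*Cd151*, the tetraspanin that binds laminin-binding integrins most tightly, was lowest in immune cells. It had 226 UPM in clear, 194 in endothelial, 161 in basal, 160 in muscle, 100.3 in principal, 81.7 in stromal and 17.2 in immune cells. Stromal cells exceeded immune cells 4.76-fold (2.57 to 9.97), and clear cells exceeded them 13.1-fold (7.06 to 27.7). The order clear over endothelial (1.16, 0.962 to 1.41) and basal over muscle (1.01, 0.876 to 1.17) lay within counting error. Inside the stroma *Cd151* ranged from 217 UPM in fibroblast C4 cells to 29.6 UPM in secretory stromal cells, a ratio of 7.33 (4.36 to 12.8). The fibroblast C4 cells were shallow, with a median of 670 UMIs per cell.

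*Cd82*, known as a suppressor of metastasis and as a surface protein of activated T cells, was low everywhere and highest in immune cells. It had 118.5 UPM in immune, 85.5 in clear, 77.8 in principal, 59.7 in muscle, 47.8 in stromal, 36.2 in basal and 22.7 in endothelial cells. Clear and principal cells (1.1, 0.902 to 1.33), muscle and stromal cells (1.25, 0.978 to 1.58) and basal and endothelial cells (1.59, 0.996 to 2.7) did not differ beyond counting error. T cells held 209 UPM against 104 in macrophages, 127 in *Trem2* macrophages and 46.2 in dendritic cells, on 23, 32, 10 and 4 UMIs. Among principal cells the level ran from 39.2 UPM in principal 1 to 148 in principal 6.

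*Tspan1*, a tetraspanin of epithelia, was a gene of clear cells. It had 87.6 UPM in clear (128 UMIs), 12.6 in basal (78), 7.21 in principal (69), 4.79 in endothelial (4), 1.72 in immune (1) and 0.925 in stromal cells (6), and was at 0 UMIs in muscle cells. Clear cells exceeded basal cells 6.94-fold (5.2 to 9.32), and basal cells exceeded principal cells 1.75-fold (1.25 to 2.45), while no neighboring types lower in the order differed beyond counting error. A UMI was found in 24.1% of clear cells at full depth and in 8.82% (5.54 to 13.2) of those drawn to 1000 UMIs. In types taken as background, 1.63% of endothelial cells held a UMI at full depth, and 0 of 502 muscle cells did, for which 3 cells of the total, the limit used here for every count of 0, are 0.598%. Both the Amylin-positive clear cells (100.2 UPM, 33 UMIs) and the main clear cells (80.8 UPM, 88 UMIs) carried it, and in principal 3 it reached 72.2 UPM on 12 UMIs.

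*Tspan8*, a tetraspanin of gut and other epithelia, was held by principal and stromal cells. Its level was 98.9 UPM in principal (946 UMIs), 73.2 in stromal (475), 12.0 in endothelial (10), 10.5 in muscle (16), 6.84 in clear (10), 1.72 in immune (1) and 0.970 in basal cells (6). Stromal cells exceeded endothelial cells 6.12-fold (3.3 to 12.8), while no neighboring types lower in the order differed beyond counting error. *Crisp1* kept 1.49% of its principal cell level in basal cells, and what part of the few *Tspan8* UMIs there came from cell-free RNA was not tested. The order of the upper 2 types depended on the weighting: principal over stromal was 1.35 (1.21 to 1.51) with pooled UMIs, 0.779 as a mean over cells and 0.978 with the authors' size factors. In cells drawn to 1000 UMIs, 8.29% of principal and 6.37% of stromal cells held a UMI, against 2 of 200 endothelial cells (1.0%) and 0 of 158 immune cells (limit 1.9%, 3 cells of the total). Of all *Tspan8* UMIs, 88.9% came from the vas deferens library, and 24.3% came from the stem-like stromal cells alone (356 UMIs, 312 UPM).

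**Figure D2:**
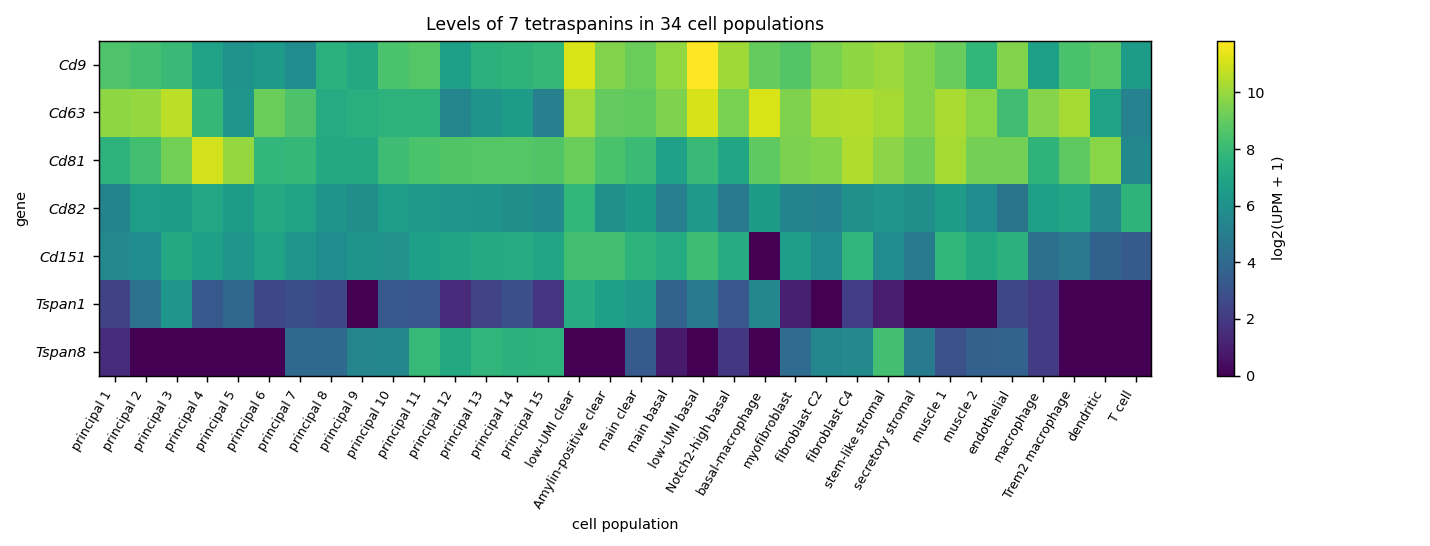
Heat map of the level of each tetraspanin (rows) in 34 cell populations (columns); color gives log2(UPM + 1), from dark (0) to yellow. *Tspan8* is dark in principal 2 to 6 and bright in principal 11 to 15 and in the stem-like stromal cells, and *Cd9* is brightest in low-UMI basal and low-UMI clear cells.

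Over the 34 populations, 4 of the 7 genes were enriched by the same rule, against 48.9% of all 11614 genes with enough UMIs. *Tspan8* was enriched in principal 11 to 15, fibroblast C2 and stem-like stromal cells, *Tspan1* in Amylin-positive and main clear cells, *Cd81* in principal 4, and *Cd9* in low-UMI basal and low-UMI clear cells. *Cd9* reached 3621 UPM in low-UMI basal cells, 2245 in low-UMI clear cells, 1129 in Notch2-high basal cells, 1064 in stem-like stromal cells and 951 in main basal cells. The low-UMI populations had medians of 900 and 698.5 UMIs per cell, and within their cells of at least 1000 UMIs the *Cd9* levels were 2917 and 1634 UPM. *Cd63* was also high in low-UMI basal cells (2200 UPM), and in the 15 basal-macrophage cells it had 2311 UPM on 54 UMIs. Among the 3 basal populations of at least 20 cells, the low-UMI one was also highest for *Cd81*, *Cd82*, *Cd151* and *Tspan1*. The paper describes its basal cells with few UMIs as low in ribosomal protein genes. It leaves unclear whether they are a real population or a technical artifact. UPM levels are shares of all UMIs, and the part of a low ribosomal share in these levels was not tested.

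**Figure D3:**
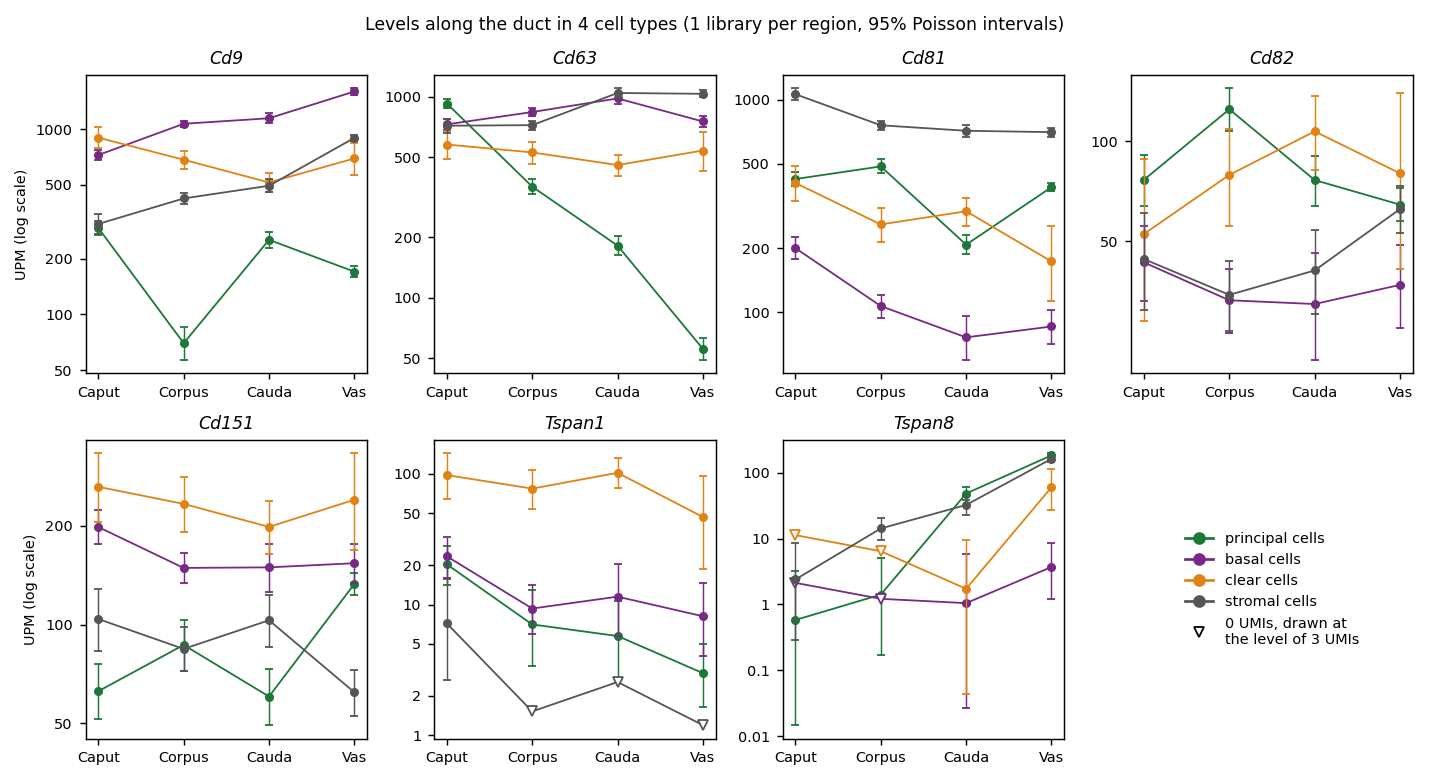
Level of each tetraspanin (UPM, log axis) in the caput, corpus, cauda and vas deferens libraries, with 1 line for each of principal, basal, clear and stromal cells and 95% Poisson intervals; open triangles mark 0 UMIs, drawn at the level of 3 UMIs. In principal cells *Cd63* goes from a caput level of 927 UPM to 55.5 in the vas deferens, while *Tspan8* goes from 0.580 to 183.5.

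The libraries were next compared within a type, which addresses the segmentation of gene expression along the duct. A gene was counted as regional in a type when its highest library had at least 20 UMIs and at least 2 times the level of its lowest library. In principal cells 6 of 7 genes were regional, all but *Cd82*, but so were 66.7% of all 9122 genes with enough UMIs. *Cd63* had 927 UPM in caput, 357 in corpus, 182 in cauda and 55.5 in vas deferens cells, lower in each library along the duct and 16.7-fold apart between the ends (14.6 to 19.1). In principal cells drawn to 1000 UMIs, a *Cd63* UMI was present in 48.5% of caput, 25.1% of corpus, 15.5% of cauda and 4.4% of vas deferens cells.

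*Tspan8* ran the other way in principal cells. It had 0.580 UPM in caput (1 UMI), 1.41 in corpus (2 UMIs), 48.3 in cauda (84 UMIs) and 183.5 in vas deferens cells (859 UMIs). The vas deferens exceeded the cauda 3.8-fold (3.03 to 4.81), and against the single UMI of the caput the ratio was 316 (56.6 to 12500). In cells drawn to 1000 UMIs, 0 of 342 caput cells, 0 of 346 corpus cells, 5.54% of cauda cells and 17.2% of vas deferens cells held a UMI, and the limits for the counts of 0 (3 cells of the total) are 0.877% and 0.867%. Of the vas deferens cells of other types at this depth, 11.5% of stromal, 0.875% of basal, 0.833% of endothelial and 0.631% of muscle cells held one, and 0 of 22 clear and 0 of 91 immune cells did.

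The other 5 genes differed between libraries of principal cells by at most 6.79-fold. *Cd9* had 292 UPM in caput, 69.8 in corpus, 252 in cauda and 170 in vas deferens cells, a dip in the corpus of 4.19-fold below the caput (3.37 to 5.25), which was 1.77-fold as a mean over cells, 2.06-fold with size factors and 5.83-fold in cells of at least 1000 UMIs. *Cd81* had 423.5, 486, 208 and 388 UPM in the same order, with the cauda lowest (corpus over cauda 2.33, 2.05 to 2.66). *Cd151* was highest in the vas deferens, at 62.7 UPM in caput, 86.7 in corpus, 60.4 in cauda and 133 in vas deferens cells (vas deferens over cauda 2.2, 1.79 to 2.74), and the ratio was 1.47 with size factors, under which *Cd81* and *Cd151* were no longer counted as regional and *Cd82* was. *Tspan1* was low throughout, at 20.3 UPM in caput (35 UMIs), 7.05 in corpus (10), 5.75 in cauda (10) and 2.99 in vas deferens cells (14), a ratio of caput to vas deferens of 6.79 (3.56 to 13.7). *Cd82* had 76.6, 125, 76.5 and 64.5 UPM, with the corpus 1.93-fold above the vas deferens (1.6 to 2.34).

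The 15 principal populations showed these differences at finer grain. Most of them come wholly or mainly from 1 library: principal 1 to 3 from the caput, 6 and 7 from the corpus, 8 to 10 from the cauda and 12 to 15 from the vas deferens. Only principal 5, 8, 9 and 11 hold at least 20 cells of 2 libraries, and in the others population and region cannot be told apart. *Cd63* had 898, 993 and 1600 UPM in principal 1, 2 and 3, between 76.4 and 571 in principal 4 to 7, between 153 and 202 in principal 8 to 11, and between 34.1 and 90.6 in principal 12 to 15. *Cd81* stood out in principal 4, a population of 74 cells shared by the caput and corpus, with 2078 UPM, followed by 997 in principal 5 and 631.5 in principal 3, and between 140 and 414 elsewhere. The principal 4 level was 14.8-fold that of principal 9 (11 to 20.3) and 1.54-fold that of fibroblast C4 (1.31 to 1.82), the next highest population of all 34. Median depth was 1180 UMIs per cell in principal 4 and 670 in fibroblast C4, and the part of depth in these levels was not tested. *Cd9* ran from 52.8 UPM in principal 7 to 423 in principal 11, an 8.0-fold range (5.49 to 12). *Tspan8* was listed at 0 UMIs in principal 2 to 6 and had 15.5 UPM in principal 7, 15.4 in principal 8, 40.7 in principal 9, 45.3 in principal 10, 238 in principal 11, and between 144 and 217 in principal 12 to 15. Principal 7 held 10 *Tspan8* UMIs in 346 corpus, 18 cauda and 1 vas deferens cells. Since the corpus principal cells of all populations held only 2, most of these UMIs came from its few cauda and vas deferens cells.

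**Figure D4:**
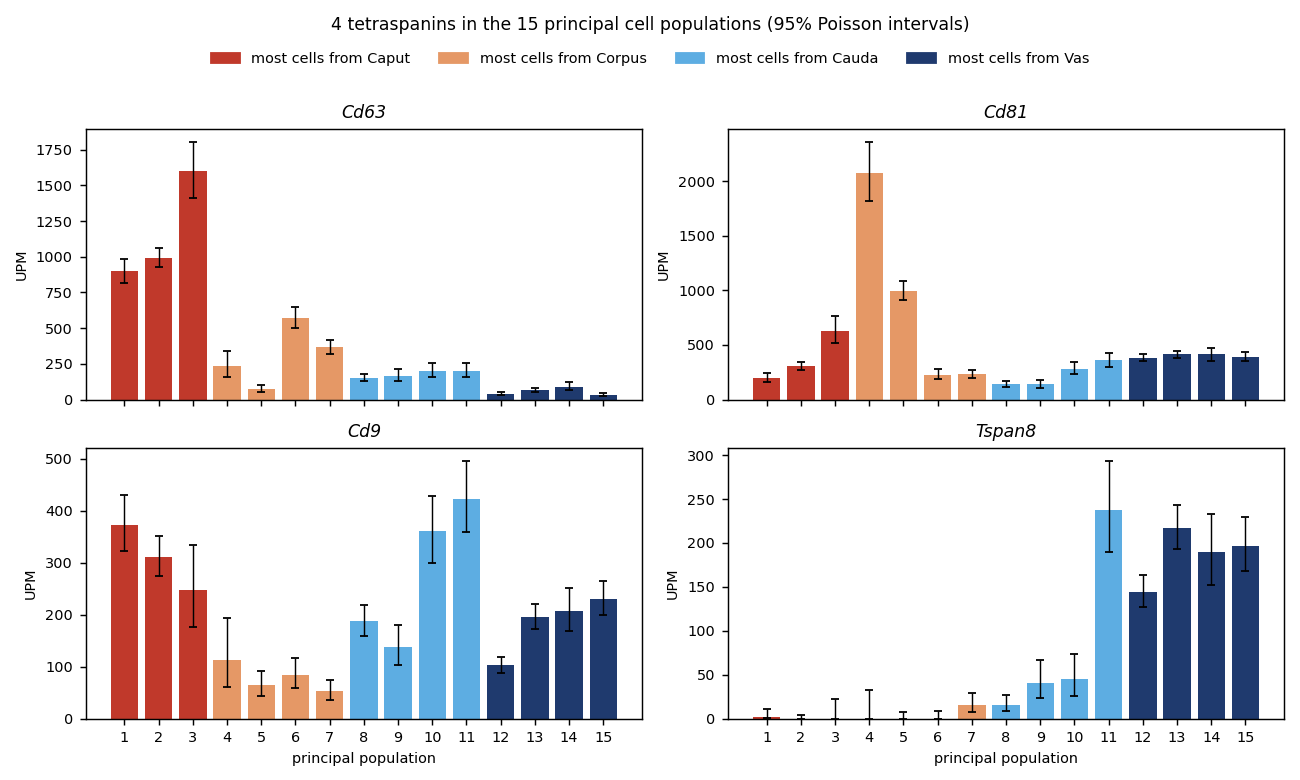
Level (UPM, with 95% Poisson intervals) of tetraspanins in the 15 principal cell populations, numbered as by the authors and colored by the library that gave most of their cells. *Cd63* is highest in principal 3 (1600 UPM), *Cd81* in principal 4 (2078 UPM), and *Tspan8* from principal 11 on (between 144 and 238 UPM).

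Within these 4 populations the libraries could be compared. In principal 5 the corpus cells had less *Cd63* than the caput cells (39.3 against 139 UPM, ratio 0.282, 0.129 to 0.582) and less *Cd81* (885 against 1188 UPM, 0.745, 0.62 to 0.895). In principal 11 the vas deferens cells had less *Cd63* than the cauda cells (56.5 against 255.5 UPM, 0.221, 0.0783 to 0.508) and more *Tspan8* (490 UPM from 52 UMIs against 134 UPM from 34 UMIs, 3.66, 2.33 to 5.82). In principal 8 the cauda cells had less *Cd63* than the 22 corpus cells (151 UPM against 556 on 6 UMIs, 0.271, 0.121 to 0.753). In principal 9 the 26 vas deferens cells had 121 UPM of *Cd63* against 192 in the cauda cells (0.632, 0.336 to 1.13) and 30.4 UPM of *Tspan8* on 4 UMIs against 46.1 on 12 (0.658, 0.155 to 2.17), both within counting error. *Cd63* was thus lower in the library farther along the duct in each of the 4, in 3 of them beyond counting error. *Cd81* in principal 5 went against principal cells as a whole, where it was higher in the corpus than in the caput.

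In basal cells, which sit at the base of the epithelium, 3 of the 6 genes with enough UMIs were regional (*Cd9*, *Cd81*, *Tspan1*), against 43.6% of all such genes, and *Tspan8* had too few. *Cd9* had 724 UPM in caput, 1068 in corpus, 1144 in cauda and 1596 in vas deferens cells, higher at each step, with a ratio of vas deferens to caput of 2.2 (2.04 to 2.38). The ratio was below 2 as a mean over cells and with size factors (1.82 and 1.72) and without cells that hold another type's markers (1.97), so that *Cd9* was no longer counted as regional. *Cd81* had 201, 107, 76.3 and 85.9 UPM in the same order, a ratio of caput to cauda of 2.63 (2.03 to 3.45). *Cd63* stayed between 730 and 983 UPM. *Tspan1* had 23.4 UPM in the caput on 33 UMIs and 8.14 in the vas deferens on 11.

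The vas deferens was also highest in *Cd9* inside 3 single basal populations. Main basal cells had 577 UPM in caput, 841 in corpus, 1010 in cauda and 1505 in vas deferens cells (ratio 2.61, 2.39 to 2.85). Low-UMI basal cells had 2022, 4377, 4211 and 5153 UPM (2.55, 2.1 to 3.09), and Notch2-high basal cells had 951 UPM in corpus, 1133 in cauda and 1427 in vas deferens cells. *Cd81* in main basal cells went from a caput level of 187 UPM to 86.6, 67.0 and 87.7 in the other libraries (vas deferens over caput 0.468, 0.366 to 0.595).

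In stromal cells 2 of the 6 genes with enough UMIs were regional, *Cd9* and *Tspan8*, against 48.7% of all genes, and *Tspan1* had too few UMIs. *Cd9* had 307 UPM in caput, 422 in corpus, 494 in cauda and 896 in vas deferens cells (ratio 2.92, 2.56 to 3.33). *Tspan8* had 2.39 UPM in caput (2 UMIs), 14.2 in corpus (28), 32.4 in cauda (38) and 162 in vas deferens cells (407), where the vas deferens exceeded the cauda 5.01-fold (3.59 to 7.18). The vas deferens library holds 517 of the 549 stem-like stromal cells, the population with the highest *Tspan8* level. Within myofibroblasts, which all libraries hold, *Tspan8* still went from a caput level of 2.63 UPM (2 UMIs) to 10.7 (18 UMIs), 12.7 (10 UMIs) and 55.9 (34 UMIs) in the vas deferens, and *Cd9* from 300.4 to 360, 381 and 656 UPM (2.18, 1.85 to 2.58). *Cd81* was lower toward the vas deferens within myofibroblasts, at 1045, 691, 650 and 503 UPM (0.481, 0.42 to 0.55). Fibroblast C2 cells went against the stroma for *Tspan8*, with 62.4 UPM in the cauda on 20 UMIs and 8.17 in the vas deferens on 1 UMI (0.131, 0.00316 to 0.818), while their *Cd9* had 402 UPM in corpus, 649 in cauda and 1144 in vas deferens cells.

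**Figure D5:**
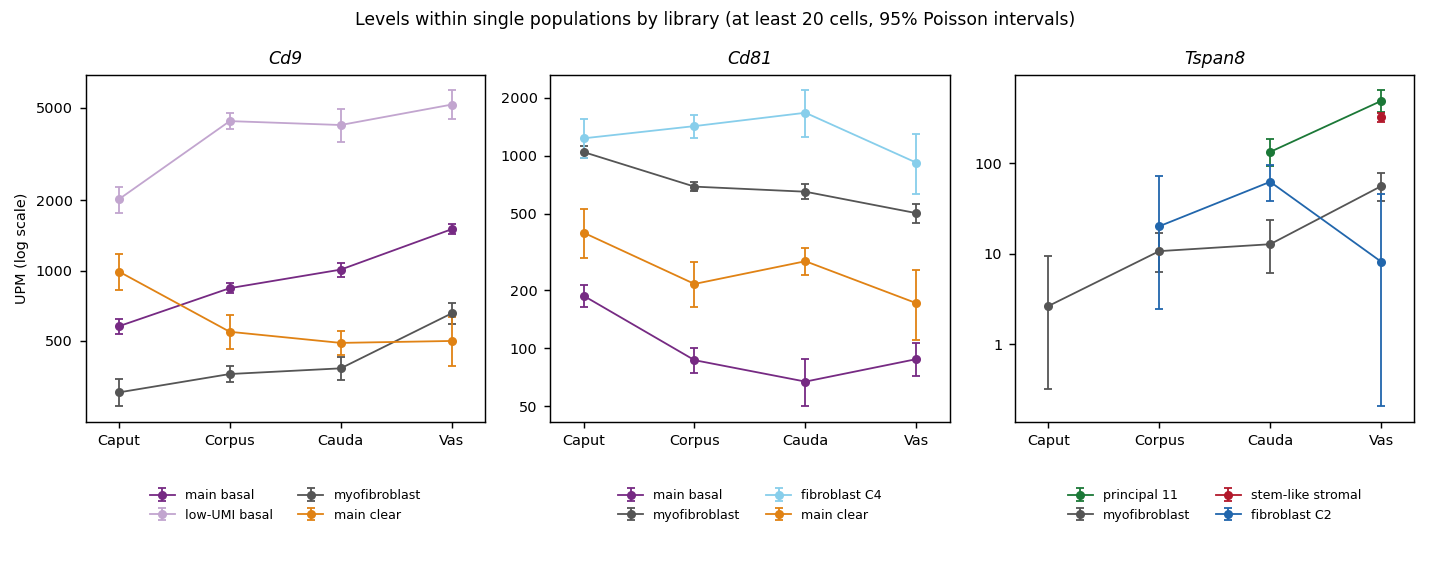
Level (UPM, log axis, with 95% Poisson intervals) of *Cd9*, *Cd81* and *Tspan8* by library within single populations, 1 panel per gene and 1 line per population, for libraries with at least 20 cells of it. *Cd9* is higher in the vas deferens than in the caput in main basal cells (1505 against 577 UPM) and in myofibroblasts (656 against 300.4 UPM).

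In clear cells 3 of the 6 genes with enough UMIs were regional (*Cd81*, *Cd82*, *Tspan1*), against 44.7% of all genes, and *Tspan8* had too few UMIs. *Cd81* had 406 UPM in caput, 259 in corpus, 299 in cauda and 174 in vas deferens cells (caput over vas deferens 2.34, 1.51 to 3.74). *Cd82* went from a caput level of 52.6 UPM to 107 in the cauda (2.03, 1.13 to 3.93), a ratio that was 1.43 as a mean over cells and 1.51 with size factors, so that it was no longer counted. *Tspan1* had 97.8 UPM in caput, 77.1 in corpus, 102 in cauda and 46.7 in vas deferens cells, on 26, 36, 59 and 7 UMIs, and the ratio of cauda to vas deferens was not separated from 1 (2.18, 0.995 to 5.66). *Cd9* in clear cells was highest in the caput (899 UPM, with 683, 515 and 694 in the other libraries), and main clear cells had 991 UPM in the caput against 499 in the vas deferens (0.504, 0.37 to 0.681). The vas deferens had only 38 clear cells, of which 3 held all 9 of its *Tspan8* UMIs.

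Muscle, endothelial and immune cells numbered at least 20 in only some libraries. Muscle cells of the cauda and vas deferens had 248.5 and 292 UPM of *Cd9*, 1238 and 858.5 of *Cd63* and 726 and 768 of *Cd81*. Within muscle 2, the cells of the vas deferens had 745 UPM of *Cd63* against 1232 in the cauda (0.605, 0.526 to 0.697). Endothelial cells had 537 UPM of *Cd9* in caput, 262 in corpus and 1065 in the vas deferens. Immune cells had 156 UPM of *Cd82* in corpus, 85.0 in cauda and 110 in vas deferens cells.

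The summed level of the 7 genes and the share of each differed by type. The sum was 2477 UPM in stromal, 2265 in basal, 2202 in muscle, 1956 in endothelial, 1866 in clear, 1240 in immune and 1133 in principal cells. *Cd9* made up 49.3% of it in basal cells, *Cd63* 41.8% in muscle and 49.6% in immune cells, and *Cd81* 33.2% in principal cells. With 1000 UMIs per cell, 74.8% of 5703 cells held a UMI of at least 1 of the 7 genes, from 54.4% of immune and 60.9% of principal cells to 86.0% of basal cells. UMIs of *Cd9*, *Cd63* and *Cd81* were found together in 12.6% of stromal cells, 6.89% of muscle, 6.3% of clear, 4.07% of basal, 3.0% of endothelial, 1.06% of principal and 0.633% of immune cells. At full depth the values were 32.9% in stromal and 4.17% in principal cells, and depth per cell moves with them.

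Over the 34 populations the closest pair of the 7 genes was *Cd9* and *Cd63* (Pearson r of log2(UPM + 10) 0.581), and the lowest r was that of *Cd63* and *Tspan8* (-0.408). By Spearman's rho the lowest pair was *Cd9* and *Cd82* (-0.408), with *Cd63* and *Tspan8* at -0.281. *Cd81* was only weakly related to *Cd9* (0.14) and *Cd63* (0.211). Among 6190 genes with at least 500 UMIs, those most like each member were *Pdpn*, *Tmbim1* and *Bsg* for *Cd9* (0.773, 0.771 and 0.758), *Slc7a8*, *Tiparp* and *Axl* for *Cd63* (0.828, 0.81 and 0.791) and *Leprel4*, *Tfpi* and *Ntn1* for *Cd81* (0.633, 0.611 and 0.596). For *Cd82* they included *Snx5* and *2510039O18Rik* (0.667 and 0.66), and for *Cd151* they were *Immt*, *Efnb2* and *Nckap1* (0.855, 0.852 and 0.847). *Tspan1* was most like *Iapp*, which encodes Amylin, *Tfcp2l1* and *Slc26a3* (0.818, 0.81 and 0.809), and *Tspan8* was most like *Gata2*, *Ptgr1* and the water channel gene *Aqp2* (0.803, 0.792 and 0.79). The populations share libraries and differ in depth, and these correlations are descriptions over 34 points.

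Other tetraspanins included many restricted to a type. Of 23 in the matrix besides the 7, 21 had enough UMIs and 14 (66.7%) were enriched in a type, against 34.2% of all genes. The median ratio of the highest to the median type was 5.75, against 2.65. Endothelial cells were the highest type for 7 of the 21, and for 1588 of all 12868 genes. The leading ones were *Cd53*, a leukocyte tetraspanin, with 656 UPM in immune cells, and *Tspan2*, with 281 UPM in muscle cells. Of the 5 partners of ADAM10 among them (*Tspan5*, *Tspan14* and relatives, which carry this protease to the surface), 1 was enriched, *Tspan5* in endothelial cells (114 UPM), with a median ratio of 2.65, and *Tspan33* had the next ratio (13.7 UPM in immune cells).

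Genes of tetraspanin partners were mostly enriched in 1 or more types. Of 5 laminin-binding integrin genes 4 (80.0%) were enriched, against 34.2% of all genes, with a median ratio of 13.2, against 2.65. Among them were *Itga7* in muscle cells (61.6 UPM), *Itgb4* in basal cells (118.5 UPM) and *Itga6* in endothelial and basal cells (268 and 245 UPM). *Itga6* is also on the list of basal cell markers used here. *Itgb1*, the common beta chain, was highest in muscle cells at 1282 UPM. Of 10 other partners 6 were enriched (median ratio 7.48), among them *Cldn1* and *Epcam*, highest in basal cells at 725 and 1872 UPM, and *Ptgfrn*, which binds CD9 and CD81, in muscle cells at 213 UPM. *Igsf8*, the other major immunoglobulin partner of CD9 and CD81, was low. With the libraries summed it was even over the types, with 26.4 UPM in stromal cells as its highest level. Within principal cells it was regional, higher in the caput and vas deferens than in the corpus and cauda. The caput cells had 31.9 UPM (55 UMIs) and the corpus cells 2.82 UPM (4 UMIs).

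Genes of vesicle formation differed by route. Of 25 ESCRT genes, whose products bud vesicles into endosomes, 2 (8.0%, against 34.2% of all genes) were enriched (median ratio 1.84, against 2.65), *Chmp4c* in clear (23.9 UPM) and *Vps37b* in immune cells (374.5 UPM). Clear cells were the highest type for 12 of the 25, and for 3499 of all 12868 genes. Of 11 genes of the ALIX, syntenin and syndecan route, which loads CD63 into vesicles, 4 (36.4%, near the share of all genes) were enriched (median ratio 3.62, against 2.65). Basal cells were the highest type for 5 of the 11, and for 1068 of all 12868 genes. The 5 included the syndecan genes *Sdc1* (248 UPM in basal cells) and *Sdc4* (1955 UPM in basal cells, not enriched), both of which the study lists as basal cell genes. *Hpse*, the heparanase that trims syndecans, had its highest level, 17.8 UPM, in clear cells, *Pdcd6ip*, which encodes ALIX, 148 UPM in clear cells, and *Sdcbp*, which encodes syntenin, 689.5 UPM in endothelial cells. All 4 flotillin, caveolin and ceramide genes with enough UMIs were highest in muscle cells, as were 2054 of all 12868 genes. Of these 4, 2 (50.0%, against 34.2% of all genes) were enriched (median ratio 3.85, against 2.65), *Cav1* (1456 UPM) and *Smpd2* (80.0 UPM).

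Of 13 genes of vesicle docking and release, 4 were enriched (30.8%, against 34.2% of all genes), with the median ratio of all genes (2.65), led by *Rab27a* in muscle cells (56.4 UPM) and *Sytl4*, which encodes a RAB27 effector, in principal cells (39.7 UPM). In principal cells *Rab27a* had 1.15 UPM, and its sister *Rab27b* had 15.3 UPM. *Sytl4* in principal cells had 184.5 UPM in caput, 35.9 in corpus, 6.32 in cauda and 0 UMIs in vas deferens cells. *Rab27b* had 9.86, 10.6, 0 and 24.4 UPM in that order. Among genes with at least 20 UMIs in principal cells of a library, 18 of 25 ESCRT genes (72.0%) and 8 of 11 docking genes (72.7%) were highest in the vas deferens, where 38.7% of all genes were. Regional differences were counted for 13 of the 25 (52.0%) and 10 of the 11 (90.9%), against 66.7% of all genes. Of 8 genes for known epididymosome cargo 6 were enriched, against 34.2% of all genes (median ratio 46.6, against 2.65). Principal cells were the highest type for 6 of the 8, and for 2116 of all 12868 genes, with *Gpx5* at 10450 UPM and *Adam7* at 1920 UPM. *Crisp1*, *Gpx5* and *Akr1b7* are also on the list of principal cell markers used here, so their enrichment there is not independent of the choice of genes.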

How the data were processed

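The data are 4 single-cell libraries, 1 per region, so samples were grouped by region with 1 sample each. The authors demultiplexed with bcl2fastq, aligned reads with HISAT2 (version 2.0.4) to mm10, which is the assembly GRCm38, counted UMIs on RefSeq genes with ESAT, kept cells within limits of total UMIs and removed estimated cell-free RNA. The deposited values are whole UMI counts of 16892 genes in 8880 cells. A deposited table gives each cell's library, cluster, population name and size factor, which is a score for the depth of a cell computed by the authors with scran, and the population names were used without re-clustering. No doublet caller is named in the sources used here, and no doublets were removed here; cells with at least 4 UMIs from at least 2 marker genes of another type were counted and left out in an alternative. The 7 genes and the gene lists were chosen with earlier results of these data known.

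Computed here were levels (UPM, with exact Poisson intervals), ratios (exact conditional binomial intervals) and shares of cells (Clopper-Pearson intervals), all at 95% and covering counting error only. Where 0 cells held a UMI, the limit printed is the share that 3 cells would be, which is lower than the Clopper-Pearson bound. A library under 3 UMIs was raised to 3 UMIs in the regional count, and a library needed 20 cells of a type. Shares were taken after drawing 1000 UMIs per cell without replacement (seed 1), which left out shallower cells. Genes outside the 7 were named by a rule: the 3 genes with the highest Pearson r for each member, the 2 genes of each list with the highest ratio of the highest to the median type, and 10 vesicle genes whatever their values. One gene that the rule names is not reported here. Promoter sequences are from RefSeq on GRCm38.p6. The scripts were tested on simulated data. Software was Python 3.11.15, numpy 2.4.6, scipy 1.17.1, pandas 2.3.3 and matplotlib 3.10.9. Alternatives changed the thresholds, the cells included, the weight of cells, the normalization, the libraries and the depth of thinning.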

Additional observations from a re-analysis of the deposited data

Results flagged for a closer look

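The direction of change between caput and vas deferens differed among types for 3 genes. With 1 library per region, the difference between types was not tested. The level of *Cd9* in the vas deferens was 2.92 times that in the caput in stromal cells, 2.2 times in basal cells and 1.98 times in endothelial cells, but 0.581 times in principal cells and 0.772 times in clear cells. The ratio for *Cd63* was 0.0599 in principal cells and 1.44 in stromal cells. The stromal cells of the caput included 184 myofibroblasts and 5 stem-like cells, those of the vas deferens 209 and 517. With libraries summed, *Cd63* had 735 UPM in myofibroblasts and 1193 in stem-like stromal cells. The part of this makeup in the stromal *Cd63* ratio was not tested. The ratio for *Cd151* was 2.12 in principal cells, 0.776 in basal cells and 0.598 in stromal cells. Within myofibroblasts alone the *Cd151* ratio was 1.11 (0.789 to 1.57), while the *Cd9* ratio was 2.18.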

How the results depend on the processing

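The 2 genes enriched in a type stayed 2 without each library in turn. The population count was between 4 and 5 without each library, and 5 without the caput, where *Cd63* was added. At a 2-fold threshold 7 genes were enriched in a population, against 4. At a 4-fold threshold 0 genes were regional in basal cells and 0 in clear cells, against 3 and 3, and 1 in stromal cells, against 2. At a 1.5-fold threshold 5 were regional in stromal cells, and as a mean over cells 5 were regional in clear cells. With 500 UMIs per cell in place of 1000, 54.7% of cells held a UMI of any of the 7 genes, against 74.8%. The ratio of *Tspan8* in principal to stromal cells was 0.779 as a mean over cells and 0.978 with size factors, against 1.35, and the cause was not tested. Of 112 ratios between libraries under the alternatives, 88 stayed within the counting interval of the pooled value, 24 left it and 4 were under 1, all of them for *Tspan8* in basal or clear cells, where it had under 20 UMIs in every library. Of 56 ratios of the highest type to the next, 10 were under 1, and beside those of *Tspan8* they concern pairs of types that were not separated (*Cd63* in muscle and stromal, *Cd81* in stromal and muscle and *Cd151* in clear and endothelial cells). In principal cells *Cd81* was no longer counted as regional with size factors, *Cd151* with size factors and as a mean over cells, and *Tspan1* at a minimum of 50 UMIs, while *Cd82* was added with size factors, as a mean over cells and without cells that hold another type's markers. In clear cells *Cd82* was lost with size factors and as a mean over cells. Counted in single populations, an alternative chosen after seeing the data, 3 genes were regional in main basal cells, 3 in main clear cells (*Cd9*, *Cd81*, *Cd82*) and 3 in myofibroblasts (*Cd9*, *Cd81*, *Tspan8*). The 21 genes most like the members shared 9 with log2(UPM + 1) and 5 with Spearman's rho. No paired analysis was possible because each region is 1 library. Depth limits *Tspan1* most, with 286 UMIs in all, and shares of cells in principal populations, whose cells are the shallowest.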
